A study of Mus musculus with 8 samples.

Results

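Gpm6a and Gpm6b encode the M6 glycoproteins of the proteolipid protein family, and they were taken as the 2 rows with these symbols among the 21165 gene rows of a count table from Nuak1 KO and WT cortex. They were chosen by the KO to WT comparison itself, since Gpm6a was among the genes past an adjusted p of 0.05 in these libraries, so their levels and fold changes are given as a description, with no test.

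RNA was sequenced from the cortex of 8 mouse embryos at E18.5, of which 4 were constitutive Nuak1 KO and 4 were WT. The deletion is constitutive, in every cell of the embryo and not only in neurons, mice were kept on the C57Bl/6JRj background, and homozygous mutants do not survive birth, so the comparison ends at this stage. By their labels, 2 of the KO and 1 of the WT embryos were male, and the labels name 3 litters where the description of the series gives 4. Column names hold a genotype and a running number, as in KO library R1, and these names tie no library to its litter or sex.

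The proteolipid proteins cross the plasma membrane several times and gather in cholesterol-rich membrane. M6a, the product of Gpm6a, is abundant on growing axons and growth cones, where it is known for driving the outgrowth of filopodia. M6b, the product of Gpm6b, is found in neurons, astrocytes and oligodendrocytes.

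Both genes were close enough in sequence to be recognized as a family and far enough apart to be counted separately. Gpm6a lies at chr8:56040081-56146231 of NCBIM37 on the plus strand, with 7 exons in 1 annotated transcript and an exon length of 3337 bases. Gpm6b lies at chrX:162676843-162826920 on the plus strand, with 13 annotated transcripts and 5600 exonic bases. The coding sequence of Gpm6a is 837 bases long, against 987 bases in the longest transcript of Gpm6b. The coding sequence around the longest run that Gpm6a and Gpm6b have in common is shown, to make visible how far a read from one gene is from the other. It lies in exon 2 of Gpm6a and in exon 3 of Gpm6b. Capitals mark this 16-base run in Gpm6a and, in Gpm6b, the bases that differ from Gpm6a, 19 of 60 bases.

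Gpm6a (chr8:56122746-56122805): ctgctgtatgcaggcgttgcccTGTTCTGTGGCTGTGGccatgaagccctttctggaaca

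Gpm6b (chrX:162810635-162810694): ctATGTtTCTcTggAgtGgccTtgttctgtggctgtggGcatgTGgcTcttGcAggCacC

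Over the aligned coding sequence, Gpm6a was 67.4% identical to Gpm6b. No 25-base word was shared by their transcripts, and the most alike 100-base windows still differed at 22 bases. No copy of at least 100 bases and 90% identity was found elsewhere in NCBIM37 for either of them. A read of 25 bases or more without mismatches could thus come from only 1 of both genes. Gm11091, a gene on the minus strand, overlaps Gpm6b in the annotation, and the strand setting of the counting is not given in the sources used here, so reads of that gene cannot be told apart from those of Gpm6b.

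Libraries held between 11027082 and 27014858 counts in KO and between 9643711 and 18940484 in WT. Libraries of the same genotype differed by more than sampling noise, with a smallest chi-square per degree of freedom of 5.36. Nuak1, the targeted gene, was at 72.9 ± 15.7 counts per 1000000 (CPM) in WT and at 0.859 ± 0.263 CPM in KO (SD, n = 4 each), with the highest KO library at 1.24 and the lowest WT library at 53.1. The log2 fold change of Nuak1 was -6.49 (SE 0.22, adjusted p = 1.2e-07 by edgeR's quasi-likelihood F test, Benjamini-Hochberg), so each column followed its genotype label. All 12 projection neuron markers examined passed the filter on low counts, which left 12699 genes to test. Among the oligodendrocyte markers, Mobp was at 0 in every library.

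Gpm6a was the more abundant of both M6 genes, and it was more abundant in every KO library than in any WT library. CPM here are scaled by the TMM method. KO libraries R1 to R4 held 1561, 1624, 1618 and 1544 CPM of Gpm6a. WT libraries R1 to R4 held 1253, 1222, 1213 and 1048 CPM. The genotypes did not overlap, and WT library R4 was the lowest of all. The means were 1587 ± 40.0 CPM in KO and 1184 ± 92.1 CPM in WT (SD, n = 4 each), a difference of 403 CPM. This corresponds to a log2 fold change of 0.42 (SE 0.06), or 34.01% more Gpm6a in KO, with no test since the gene was chosen by this contrast. The lowest KO library was 23.2% above the highest WT library. As whole tissue was sequenced, more transcript per cell and more cells that express the gene cannot be told apart here.

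These values rest on 10253 to 43179 reads of Gpm6a per library, so counting error was small. The coefficient of variation of Gpm6a was 2.52% among KO libraries and 7.77% among WT libraries, against 0.613% and 0.791% expected from counting alone. The spread among WT libraries thus came mostly from library R4, which was below the other 3.

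The genotype means of Gpm6b differed by 5.7 CPM, less than the SD among WT libraries but more than that among KO libraries. The 4 KO libraries held 386, 376, 377 and 381 CPM of Gpm6b, and the 4 WT libraries 370, 389, 382 and 356 CPM. The ranges overlapped, with the highest and the lowest value both in WT. The means were 380.0 ± 4.37 CPM in KO and 374 ± 14.3 CPM in WT (SD, n = 4 each), with a log2 fold change of 0.02 (SE 0.05), again with no test. Its coefficient of variation was 1.15% in KO, below the 1.25% expected from counting, and 3.83% in WT, where counting gives 1.40%. As for Gpm6a, WT library R4 was the lowest. Gpm6b lies on the X chromosome. The sex of each library was not determined here, so the part of sex in these values was not tested.

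**Figure D1:**
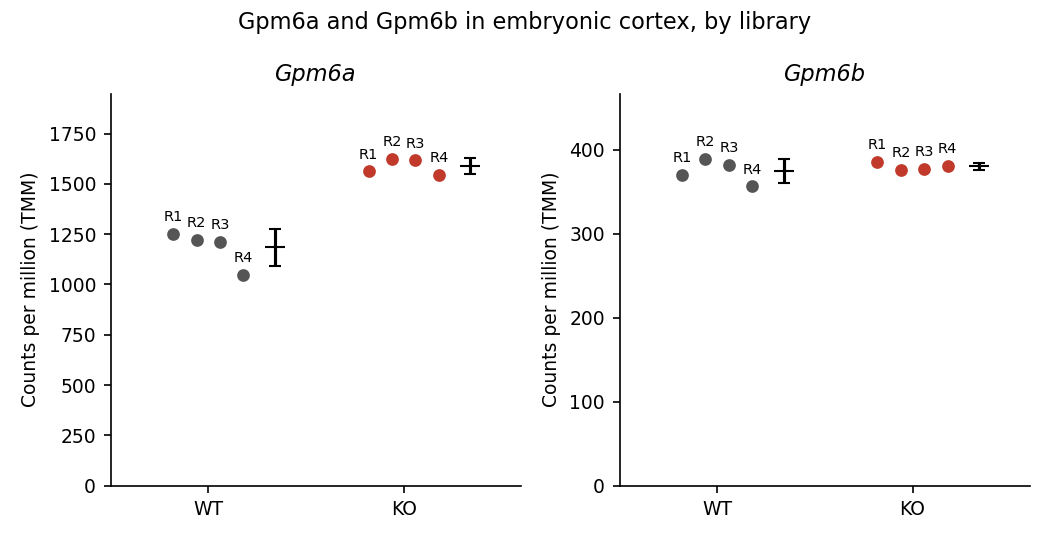
CPM after TMM scaling (vertical axis, starting at 0 and with a scale of its own for each gene) of Gpm6a and Gpm6b in the 4 WT and the 4 KO libraries, with R1 to R4 beside the points and bars for mean ± SD. For Gpm6a all KO points, from 1544 to 1624, sit above all WT points, from 1048 to 1253, whereas the points of Gpm6b overlap.

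To compare levels between the members, counts were scaled by exon length as RPKM, that is CPM per kilobase of exon. Gpm6a stood at 476 ± 12 RPKM in KO and 355 ± 27.6 in WT, and Gpm6b at 67.9 ± 0.780 and 66.8 ± 2.56 (SD, n = 4 each). Gpm6a was the higher of both in either genotype, with a gap far above the spread between libraries. The size of the gap depends on the lengths used. That of Gpm6b, 5600 bases, joins the exons of 13 transcripts, which can lower its RPKM, while that of Gpm6a comes from 1 transcript. By mean RPKM over all libraries, Gpm6a ranked 79 among the 12169 tested genes with an annotated length, and Gpm6b ranked 820. In WT alone, which leaves out the KO libraries in which Gpm6a was high, they ranked 90 and 828. Gpm6a made up 87.5 ± 0.383% of the summed RPKM of both genes in KO and 84.1 ± 0.764% in WT.

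The ratio of Gpm6a to Gpm6b counts within a library does not depend on library scaling, and it separated the genotypes. There were 4.05, 4.32, 4.29 and 4.05 Gpm6a counts per Gpm6b count in KO libraries R1 to R4. In WT libraries R1 to R4 there were 3.38, 3.14, 3.18 and 2.94. The lowest KO ratio was thus above the highest WT ratio. The mean ratios of 4.18 ± 0.147 and 3.16 ± 0.181 (SD, n = 4 each) differed by 0.40 on the log2 scale, close to the log2 fold change of Gpm6a alone. The numerator was chosen by the contrast, so the difference was not tested.

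Gpm6a was also set against the summed transcripts of neuron markers, as a description, since it was chosen by this contrast. The 12 projection neuron markers include genes of neurons in general, such as Dcx and Map2. As a percentage of their summed CPM, Gpm6a reached 65.9, 62.1, 61.8 and 61.1% in KO libraries R1 to R4. In WT libraries R1 to R4 it reached 48.7, 45.9, 47.2 and 44.1%. The genotypes did not overlap, and WT library R4 was again the lowest. That library also had the lowest sum of neuron markers in WT, 2378 CPM, where the other WT libraries had 2570 to 2664 and KO libraries 2369 to 2618. The means were 62.7 ± 2.16% and 46.5 ± 1.97% (SD, n = 4 each), a log2 difference of 0.43. The sums overlapped between genotypes, but the most abundant markers weigh most in them. These were Map2 (911 and 894 CPM in KO and WT), Neurod6 (567 and 469 CPM) and Dcx (424 and 428 CPM). The 4 markers called lower in KO, such as Nefl at 63.9 and 119 CPM, weigh less, so the sums can overlap while these markers fall. The cause of the separation was not tested.

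**Figure D2:**
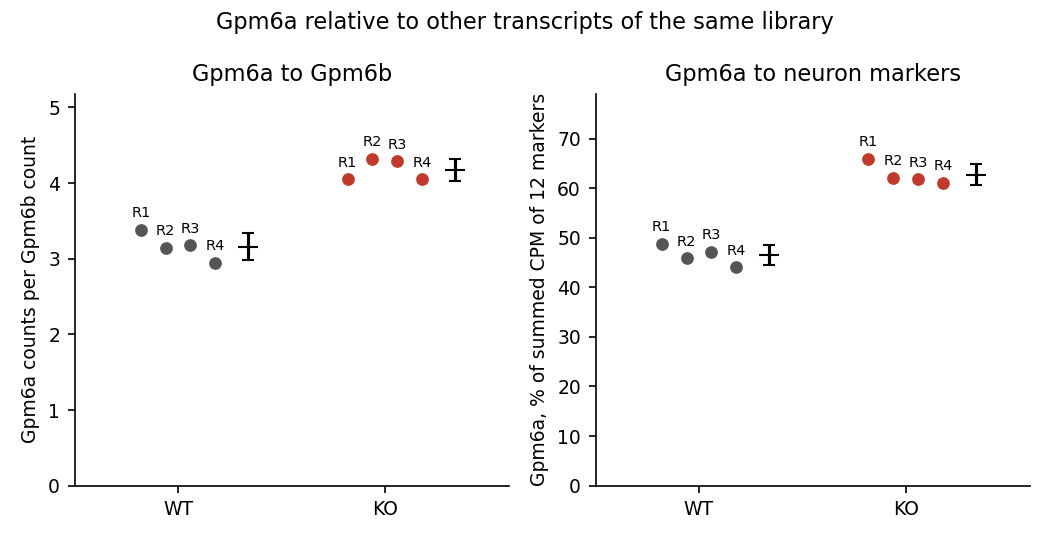
Gpm6a counts per Gpm6b count (left) and Gpm6a as a percentage of the summed CPM of 12 neuron markers (right) in each library. Bars give mean ± SD, and axes start from 0. In both panels the 4 KO libraries lie above the 4 WT libraries, with ratios of 4.05 to 4.32 against 2.94 to 3.38 and percentages of 61.1 to 65.9 against 44.1 to 48.7.

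Against the other sums used as a base Gpm6a separated the genotypes likewise, again described with no test since it was chosen by this contrast. Relative to the summed growth cone genes, Gpm6a stood at 9.05 ± 0.472% in KO and 6.87 ± 0.696% in WT, a log2 difference of 0.40. Relative to the radial glia and astrocyte markers it stood at 48.8 ± 1.51% and 33.3 ± 5.90%, a log2 difference of 0.57, with the summed markers between 3059 and 3455 CPM in KO and between 3118 and 4197 CPM in WT. Gpm6b showed no such separation, with 15.03 ± 0.894% and 14.7 ± 0.260% of the neuron markers and 11.7 ± 0.683% and 10.5 ± 1.57% of the radial glia and astrocyte markers in KO and WT (SD, n = 4 each).

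The fold changes of Gpm6a and Gpm6b were set beside those of all genes tested, as a description. The median log2 fold change was -0.01 and the central 90% of genes ranged from -0.28 to 0.32, and 377 genes had a higher log2 fold change than Gpm6a. Of the 34 genes at least as abundant as Gpm6a, itself included, 0 had a higher one, and their central 90% ranged from -0.08 to 0.27. As Gpm6a was chosen by this contrast and its own level set the cut, nothing is read from this rank. Gpm6b lay near the centre, with 1886 genes nearer to zero.

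With edgeR, 9 genes passed an adjusted p of 0.05, which is 0.0709% of those tested, and Gpm6a was one of them. The limits set in the study were a log2 fold change beyond ±0.25 with p under 0.05 before adjustment. At these thresholds 4.25% of the genes tested were called, 2.45% higher and 1.8% lower in KO, and Gpm6a was among the higher ones. Higher in every KO library than in any WT library were 2.64% of the genes, Gpm6a included. As these counts come from the contrast that chose Gpm6a, nothing is read from them. Gpm6b passed none of these limits.

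**Figure D3:**
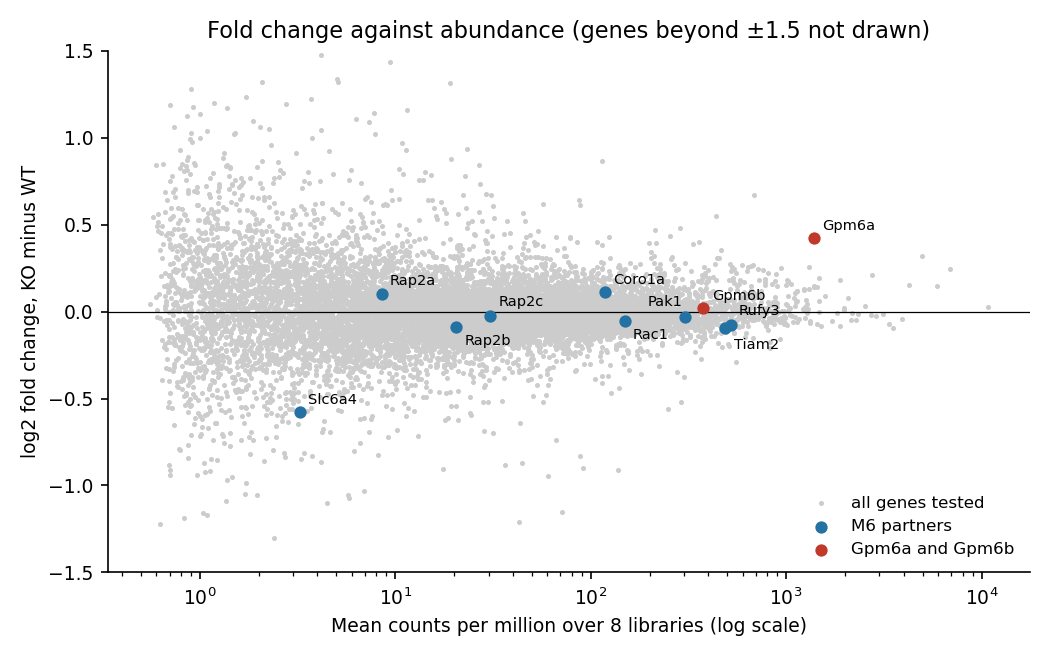
Log2 fold change of KO over WT (vertical axis) against mean CPM over 8 libraries (horizontal log axis) for the genes tested, with Gpm6a and Gpm6b in red and the M6 partners in blue. Gpm6a, chosen by this contrast, lies at 0.42, while Gpm6b and most partners lie near 0.

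Leaving out each library in turn kept Gpm6a higher in KO. Its log2 fold change ranged from 0.37 without WT library R4 to 0.45 without WT library R1. The adjusted p of edgeR depended more on the libraries, and fell below 0.05 in 1 of the 8 fits with a library left out, the one without WT library R4. The thresholds of the study were passed in all 13 fits run. For Gpm6b the log2 fold change ranged from 0.005 without WT library R4 to 0.04 without WT library R2, and 0 of the 13 fits passed those thresholds.

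**Figure D4:**
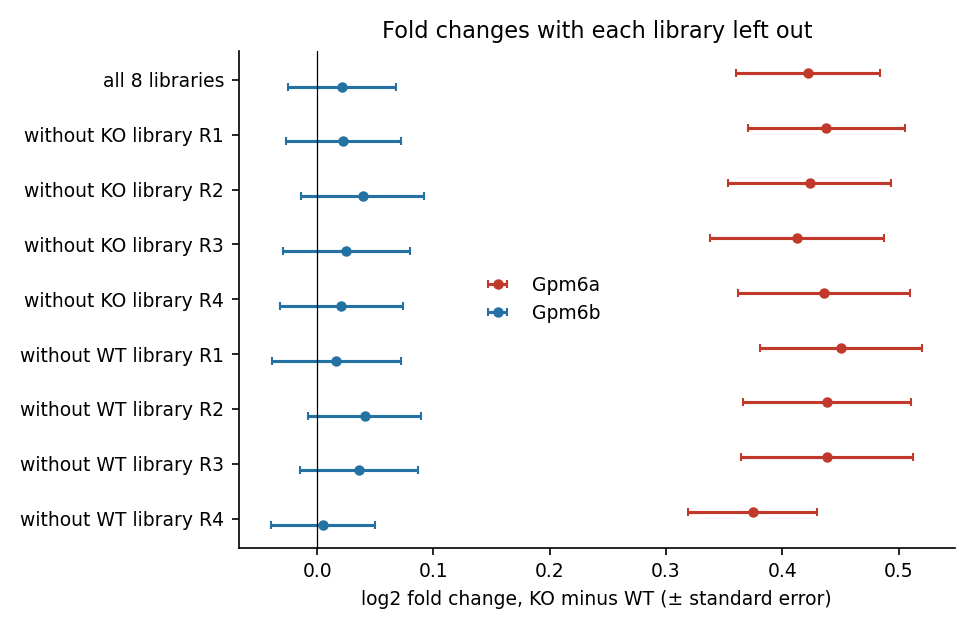
Log2 fold change of KO over WT with its standard error (horizontal axis) for Gpm6a in red and Gpm6b in blue, with all 8 libraries and with each library left out. Gpm6a stays between 0.37 and 0.45 and Gpm6b between 0.005 and 0.04.

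Genes that act with the M6 proteins were compared next, from a list of 10 partners. At the thresholds of the study 0 of the 9 partners tested were called, against 4.25% of all genes, and 0 had an unadjusted p under 0.05 or an adjusted p under 0.05 with edgeR or DESeq2. Their median log2 fold change was -0.05, with 2 higher and 7 lower in KO, beside -0.01 over all genes.

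The first group of partners links M6a to neuronal polarity. Rufy3, an adaptor protein of growth cones that binds M6a, was at 506 ± 30.2 CPM in KO and 534 ± 15.0 CPM in WT (log2 fold change -0.08, SE 0.05, adjusted p = 0.800 from edgeR). Tiam2, an exchange factor that activates Rac1, was at 449, 499, 466 and 476 CPM in KO libraries and at 530, 589, 537 and 364 CPM in WT libraries. WT library R4 was here too the lowest of all, and the log2 fold change of Tiam2 was -0.10 (adjusted p = 0.895 from edgeR). The Ras-like GTPases were low, with 8.80 and 8.22 CPM of Rap2a, 20.0 and 21.2 CPM of Rap2b, and 30.2 and 30.8 CPM of Rap2c in KO and WT.

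The second group carries M6a to the actin of filopodia. Coro1a, which encodes the actin-binding protein coronin-1A, was at 122 CPM in KO and 113 CPM in WT (log2 fold change 0.11, adjusted p = 0.751 from edgeR). Pak1, a kinase downstream of Rac1, was at 299 and 306 CPM, and Rac1 itself at 146 and 152 CPM. Of the membrane proteins known to associate with the family, the serotonin transporter gene Slc6a4, a partner of M6b, was at 2.61 CPM in KO and 3.88 CPM in WT (log2 fold change -0.58, SE 0.39, adjusted p = 0.788 from edgeR). The opioid receptor gene Oprm1, a partner of M6a, was at 0.414 and 0.478 CPM and did not pass the filter on low counts.

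Wider groups of genes with related functions were then counted. Of 26 tested genes of filopodia and their actin regulators, 0 were called at the thresholds of the study and 2 had an unadjusted p under 0.05, with 0 past an adjusted p of 0.05 with edgeR or DESeq2 and a median log2 fold change of -0.04. Without WT library R2, 3 of them were called, and without KO library R2, 1. Of 23 growth cone genes, 1 was called, with a median log2 fold change of 0.01. It was Stmn4, which encodes a stathmin that binds tubulin.

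Stmn4 stood at 623, 662, 640 and 683 CPM in KO libraries R1 to R4 and at 515, 523, 487 and 643 CPM in WT libraries R1 to R4. WT library R4 lay within the KO range, so the genotypes overlapped. The log2 fold change of Stmn4 was 0.27 (SE 0.08, unadjusted p = 0.00702, adjusted p = 0.489 from edgeR), and it was 0.36 without WT library R4. Without WT library R1 or R3, 0 growth cone genes were called, and without WT library R2 or R4, 2.

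Of 38 tested genes of other tetraspan proteins, which also cross the membrane repeatedly, 2 were called higher and 1 lower, and their median log2 fold change was 0.03, or -0.02 without KO library R1 and 0.09 without WT library R4. Cldn5, a claudin of endothelial tight junctions, was at 23.98 CPM in KO and 18.5 CPM in WT (log2 fold change 0.38, adjusted p = 0.440 from edgeR). Cldn12, another claudin, was at 5.27 and 3.86 CPM (0.44, adjusted p = 0.554 from edgeR). Cacng3, which encodes an auxiliary subunit of AMPA receptors, was at 4.64 and 6.33 CPM (-0.44, adjusted p = 0.592 from edgeR). None of the 3 passed an adjusted p of 0.05. The number of tetraspan genes called was 7 without WT library R4. Over these lists and the partners, 4 of 96 tested genes were called, a share near that of all genes, 4.25%. With a library left out, the median of the partners ranged from -0.07 to -0.03, that of the filopodia genes from -0.05 to -0.002 and that of the growth cone genes from -0.02 to 0.03.

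**Figure D5:**
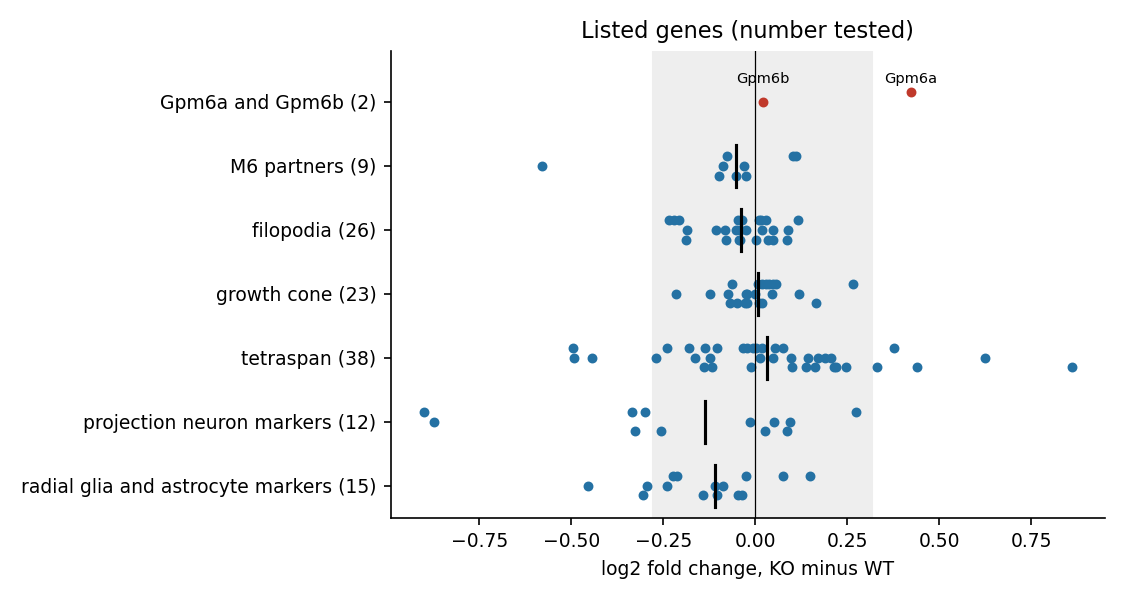
Log2 fold change of KO over WT for Gpm6a, Gpm6b and each tested gene of 6 lists, with the number tested in brackets, a black bar at the median of each list and a grey band over the central 90% of all genes tested, from -0.28 to 0.32. Gpm6a, at 0.42, lies to the right of the band, while the medians of the lists lie between -0.14 and 0.03.

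Markers of the cell types that may express the family are given beside these values. The 12 projection neuron markers include genes of neurons in general, such as Snap25. At the thresholds of the study 0 were called higher and 4 lower, where 2.45% and 1.8% of all genes tested were. An adjusted p of 0.05 was passed by 0 of the markers with edgeR and 2 with DESeq2. Their median log2 fold change was -0.14, with 5 higher and 7 lower, but 0.04 without WT library R3 and -0.01 without KO library R4. Snap25, which acts in synaptic vesicle fusion, was at 140 ± 10.3 and 176 ± 13.4 CPM (-0.34, adjusted p = 0.224), and the neurofilament gene Nefl at 63.9 and 119 CPM (-0.90, adjusted p = 0.260). The summed neuron markers overlapped between genotypes, and their part in the level of Gpm6a was not tested.

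Radial glia and astrocyte markers were called lower in 2 of 15 cases, Slc1a3 and Slc1a2, both glutamate transporters, against 1.8% of all genes tested. The median of these markers was -0.11, with 13 of 15 lower. With a library left out it ranged from -0.18 without KO library R3 to -0.03 without KO library R4, where 5 of 15 were higher, and it was -0.17 without WT library R1, -0.16 without WT library R2 and -0.06 without WT library R3. Slc1a3 was at 132 CPM in KO and 163 CPM in WT (adjusted p = 0.611 from edgeR) and Slc1a2 at 17.6 and 24.3 CPM (adjusted p = 0.629). Without KO library R3 neither was called, without KO library R2 or R4 or WT library R3 or R4 there was 1, and without WT library R2 there were 5. The 8 interneuron markers were all lower with all libraries, with a median of -0.17 that was -0.28 without WT library R2 and -0.11 without WT library R4, and 1 of 8 was higher without KO library R1 or R4 or WT library R1, R3 or R4. Of these markers 0 were called and 1 had an unadjusted p under 0.05 with edgeR. Without WT library R2, 4 were called, and without KO library R2 or R3 or WT library R1, 1. Of 8 tested oligodendrocyte markers 0 were called and 0 had an unadjusted p under 0.05 with edgeR (1 was called without WT library R4), and their summed CPM was 81.7 to 121 in KO and 76.4 to 123 in WT.

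Meningeal fibroblast markers were high in KO library R1, at 647 summed CPM, against 28.6 to 40.0 in the other KO libraries and 22.2 to 31.1 in WT. All 6 tested were called higher, with a median log2 fold change of 2.93, which was 0.37, with 2 called, without KO library R1. Without WT library R1, 3 were called, and DESeq2 called 1. The log2 fold change of Gpm6a without KO library R1 was 0.44. All 8 endothelial markers were higher, with 1 called and a median of 0.18. That median was 0.07, with 6 of 8 higher, without KO library R1 and 0.28, with 4 called, without KO library R2. Without KO library R4 or WT library R2, with DESeq2 and with no filter, 2 of them were called. All 7 microglia markers were higher, with 0 called and 0 at an unadjusted p under 0.05 with edgeR, and a median of 0.15. That median was 0.02 without KO library R1, 0.29 without KO library R3 and 0.24 without KO library R2 or WT library R4, and 1 was called without KO library R2 or R3. Only 4 of 7 microglia markers were higher without KO library R1, and 6 of 7 without KO library R4 or WT library R2 or R3.

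Of 5 tested red blood cell markers, 4 were higher and 1 lower, with a median of 0.29 that ranged from 0.07 without WT library R4 to 0.52 without KO library R4, and was 0.09 without KO library R3 and 0.51 without WT library R3. Hba-a1, a haemoglobin gene, was the 1 called (2 were called without KO library R4). It was at 128.5, 220.2, 19.4 and 9.92 CPM in KO libraries R1 to R4 and at 18.6, 15.0, 21.1 and 12.99 CPM in WT libraries R1 to R4. KO library R3 lay within the WT range and KO library R4 below it. Reads of Hba-a1 may be shared with its near-identical copy Hba-a2. Of the choroid plexus markers, 0 had enough counts to be tested.

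The nearest tested genes on each side of the M6 loci were examined as well. Wdr17, 230 kb before Gpm6a, was at 65.0 CPM in KO and 65.8 CPM in WT. Hpgd, 2627 kb after it, was at 1.57 and 1.87 CPM. Neither was called, and both overlapped between genotypes. Beside Gpm6b, Gemin8 was at 6.08 and 7.20 CPM (log2 fold change -0.26, adjusted p = 0.708 from edgeR). Its KO libraries, at 5.21 to 6.52 CPM, lay only just below its WT libraries, at 6.53 to 8.12 CPM. Ofd1, on the minus strand with its nearer end 1.045 kb after Gpm6b, was at 42.0 and 46.2 CPM (-0.13, adjusted p = 0.768).

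Finally, the genes whose levels varied most like those of the M6 genes were sought among 8916 other genes with a mean of at least 10 CPM, by Pearson's r of log2 CPM over 8 libraries after the mean of each genotype was subtracted. For Gpm6a these were Taf4a, a subunit of the general transcription factor TFIID (r = 0.99), Mpp6, a membrane-associated guanylate kinase (0.99), Rwdd4a (0.98), Xpo7, a nuclear export receptor (0.98), and Kif26a, an atypical kinesin (0.98). The lowest values were those of 0610007C21Rik (-0.99), Slc12a5, the neuronal chloride exporter (-0.99), and Itfg1 (-0.98). These r are the extremes of 8916 values over 8 libraries, and WT library R4 weighs on them, as it deviated by -0.17 on the log2 scale where the others deviated by -0.04 to 0.09. With the genotype means kept, the 5 genes most like Gpm6a were Arl15 (0.98), Kif26b (0.95), Txnrd1 (0.95), Polr3b (0.94) and Crbn (0.94), none of which was among the first 5. This r also holds the KO to WT difference by which Gpm6a was chosen. These 5 genes were all higher in KO, with log2 fold changes from 0.19 for Crbn to 0.62 for Kif26b. After the genotype means were subtracted, their r ranged from 0.48 for Polr3b to 0.94 for Crbn.

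For Gpm6b the most alike were Ddx11, a DNA helicase (0.98), Mcm7, a subunit of the replicative helicase (0.97), Trmt112 (0.96), Cnr1, the cannabinoid receptor of neurons (0.96), and Ciao1 (0.96), and the least alike were Epn1 (-0.98), Neto1 (-0.98) and Cxx1b (-0.97). Gpm6a and Gpm6b themselves varied together with r = 0.63 and Spearman's rho = 0.36 over 8 libraries. Without KO library R4 and WT library R4, the farthest from the median of the deviations of Gpm6a, r was -0.21. WT library R4 was low for both genes, with deviations of -0.17 for Gpm6a and -0.07 for Gpm6b. In KO library R4 these were -0.04 and 0.004, so the relation came mostly from WT library R4. Both genes also share the scaling of each library.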

How the data were processed

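Per the labels and the methods of the study, the authors trimmed the reads with cutadapt 1.13 and Prinseq, mapped them to mm9 with TopHat2 2.0.13 and counted them per gene with HTSeq-count. The deposited values are whole-number counts, not normalized. The row identifiers are headed id_fasterdb, but the counting annotation and strand setting are not stated in the sources used here. Of the per-library columns 0 were left unused.

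KO was compared with WT by edgeR 4.0.16 under R 4.3.3, with TMM scaling, the filter filterByExpr and a quasi-likelihood F test without covariate. The study used DESeq2, and version 1.42.0 was run as an alternative. The other alternatives were DESeq2's size factors within edgeR, all genes unfiltered, a minimum of 10 counts per library, and leaving out single libraries. RPKM used exon lengths annotated on NCBIM37, which mm9 is built on and where 92.5% of the rows were placed once. It is not the counting model of the authors. The fit was tested on simulated data. Sequences were read from that genome, aligned with Biopython 1.88 and searched with BLAST 2.17.0.

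The members, lists and tests were chosen with earlier results of these data known. Genes named are the members, the M6 partners, up to 3 genes per direction of the filopodia, growth cone and tetraspan lists and up to 2 of the other lists with the smallest p among those past the thresholds of the study, the 5 genes most like and the 3 least like each member, the nearest tested neighbours, and Nuak1. Further markers were named after their values were seen. Plppr2, Plppr3, L1cam, Cacng8 and Rbfox3 were not analysed here, and 2 further listed genes are not reported here and were left out of the lists. Libraries came from separate embryos, some of one litter, which the fit could not take into account.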

Additional observations from a re-analysis of the deposited data

Results flagged for a closer look

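In 74 groups of 4 libraries, the gap of the highest or lowest library to its neighbour was compared with the range of the group, and 4 groups had a library that stood apart, where chance gives about 3.7. Among the M6 partners, Rap2c was lowest in KO library R2, at 28.3 CPM, with the other KO libraries at 30.6 to 31.1. The collagen genes were highest in KO library R1, with Col1a1 at 72.6 CPM against 1.75 to 2.65 and Col1a2 at 164 CPM against 6.78 to 10.1. The summed meningeal fibroblast markers, which hold both, were at 647 CPM in that library against 28.6 to 40.0 in the other KO libraries. Neither Gpm6a nor Gpm6b had a library that stood apart by this measure in either genotype. WT library R4 was still low for Gpm6a, at 1048 CPM, with the other WT libraries at 1213 to 1253.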

How the results depend on the processing

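The log2 fold change of Gpm6a was 0.43 with DESeq2, with its size factors and with either other filter, and that of Gpm6b 0.03, and the log2 difference of their count ratios lay between 0.37 and 0.44 in fits that lacked 1 library. An adjusted p under 0.05 was reached by 70 genes with DESeq2 in place of 9, and by 2 to 11 in fits that lacked 1 library, fewest without KO library R3. Such fits gave 426 to 847 genes past the thresholds of the study, most without WT library R4, and the other alternatives 489 to 716. Of the listed genes they gave 3 to 9, most without WT library R2 and without WT library R4. Genes near 0 changed sign in some of these fits. Wdr17 ranged from -0.0609 to 0.0546 and was also at 0.0520 without WT library R4, Rap2c from -0.0433 to 0.0145 and was also at 0.0123 without WT library R3, and Pak1 from -0.0425 to 0.0208, with the highest values without KO library R1, KO library R2 and KO library R1. The cause was not tested. The adjusted p of Gpm6a was under 0.05 in 1 of 8 fits that lacked a library and in 4 of 4 others. For the other genes named, 292 values kept the sign and the side of an adjusted p of 0.05, and 2 fell below it, those of Stmn4 without WT library R4 and of Snap25 with DESeq2. Counts of called genes per list stayed within 1.5 times in 114 fits and moved further in 30.

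No paired analysis was possible because the names of the columns give neither litter nor embryo, and no block by litter was fitted. Depth limits Slc6a4 and Oprm1, and with 4 libraries per genotype WT library R4 has a large part in the spread of Gpm6a.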
